A study of Mus musculus with 8 samples.

Results

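The genes described here encode the enzymes and readers that write, bind and remove repressive chromatin marks. They are 43 genes taken by name, all of them among the 34199 genes counted and all among the 13080 that passed the filter on low counts. They fall into 4 groups: 11 genes of H3K9 and H4K20 methylation with the HP1 proteins, 16 Polycomb genes, 8 genes of DNA methylation and demethylation, and 8 remodellers, demethylases and deacetylases. The rule names the genes and uses no measured value.

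Heterochromatin is marked by methylated lysine 9 of histone H3, which SUV39H, SETDB1 and the EHMT enzymes write and HP1 proteins bind. Polycomb repressive complex 2 methylates lysine 27 of histone H3 through EZH1 or EZH2, and Polycomb repressive complex 1 binds this mark through CBX proteins and ubiquitinates histone H2A. DNMT1, guided by UHRF1, copies DNA methylation onto the new strand after replication, DNMT3 enzymes set it anew, and TET enzymes oxidise it. Several of these marks are carried through DNA replication on recycled and newly deposited histones. In myeloid progenitors, the genes of this class include Tet2, Dnmt3a and Ezh2, which are recurrently mutated in myeloid disease.

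RNA was sequenced from 8 libraries of immortalised granulocyte-macrophage progenitors (iGMPs) of C57Bl/6 mice. All carried Lys-GFP, a GFP reporter of lysozyme expression, and HOXA9 fused to the hormone-binding domain of the estrogen receptor, which is active while estradiol is present. There were 4 groups with 2 libraries each. Uninduced cells were grown with 150 ng/ml estradiol and taken at 0 h. CAF-1 OFF cells had 500 µM IPTG for 48 h in the presence of estradiol, which switches on an shRNA against Chaf1b, a subunit of the histone chaperone CAF-1. IPTG control cells had IPTG for 48 h in the medium with estradiol that the growth protocol gives, and the labels do not say which vector they carried. HOXA9 OFF cells were washed and kept without estradiol for 48 h. These cells are clonal lines grown in culture on stem cell factor, and the study's supplement names independent sub-clones behind its RNA-seq tracks. The labels tie no library to a sub-clone or a separate culture, so p-values measure the spread between these libraries, which may be technical.

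Between 14044284 and 22423837 reads were assigned to genes per library, and levels are given in CPM, counts scaled by the TMM-adjusted size of each library. Chaf1b was at 96.8 and 100.3 CPM in uninduced, 95.1 and 101.7 CPM in IPTG control, 18.7 and 9.72 CPM in CAF-1 OFF and 48.3 and 41.0 CPM in HOXA9 OFF cells, so the targeted gene was lowest in the libraries labelled for its knockdown. Summed levels of 8 progenitor markers ran from 5979 CPM in HOXA9 OFF replicate 2 to 16300 CPM in CAF-1 OFF replicate 2, and by the rule below 4 of 8 were called lower and 1 higher in HOXA9 OFF cells, against 0 and 1 in CAF-1 OFF cells. The 5 T cell markers summed to at most 6.59 CPM. Reads outside annotated genes were more frequent in IPTG control replicate 1 (14.6%) than in the rest (5.3% to 7.79%). A gene was called when the Benjamini-Hochberg false discovery rate (FDR) of edgeR's quasi-likelihood test was under 0.05 and the change was at least 1.5-fold.

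In uninduced cells the level per kilobase of exon differed widely between the genes. Trim28, the corepressor that brings SETDB1 to zinc finger proteins, was highest at a mean of 216 CPM per kb. Dnmt1 followed at 93.6 CPM per kb, its partner Uhrf1 was at 80.9, and Suz12, a core subunit of Polycomb repressive complex 2, was at 59.2 CPM per kb. The lowest were Cbx7 at 0.837 and Tet1 at 1.004 CPM per kb. Among paralogs, Ezh2 (32.01 CPM per kb) stood above Ezh1 (2.63), Dnmt3a (7.93) above Dnmt3b (5.54) and Tet3 (6.11) above Tet2 (3.11) and Tet1.

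IPTG and 48 h of culture alone gave no call. Between IPTG control and uninduced cells 0 of 43 members were called in either direction by edgeR, where 0% of all tested genes were called. At an unadjusted edgeR p under 0.05 there were 0 members and 100 of all genes, and DESeq2 also called 0 members. The 100 are a smaller share of all tested genes than 0.05, fewer than unchanged genes would give. The test was thus conservative here, and a lack of calls does not show a lack of change. The log2 fold changes of the members were between -0.29 and 0.19, and the plot of levels by library shows both control groups side by side around the uninduced mean.

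**Figure D1:**
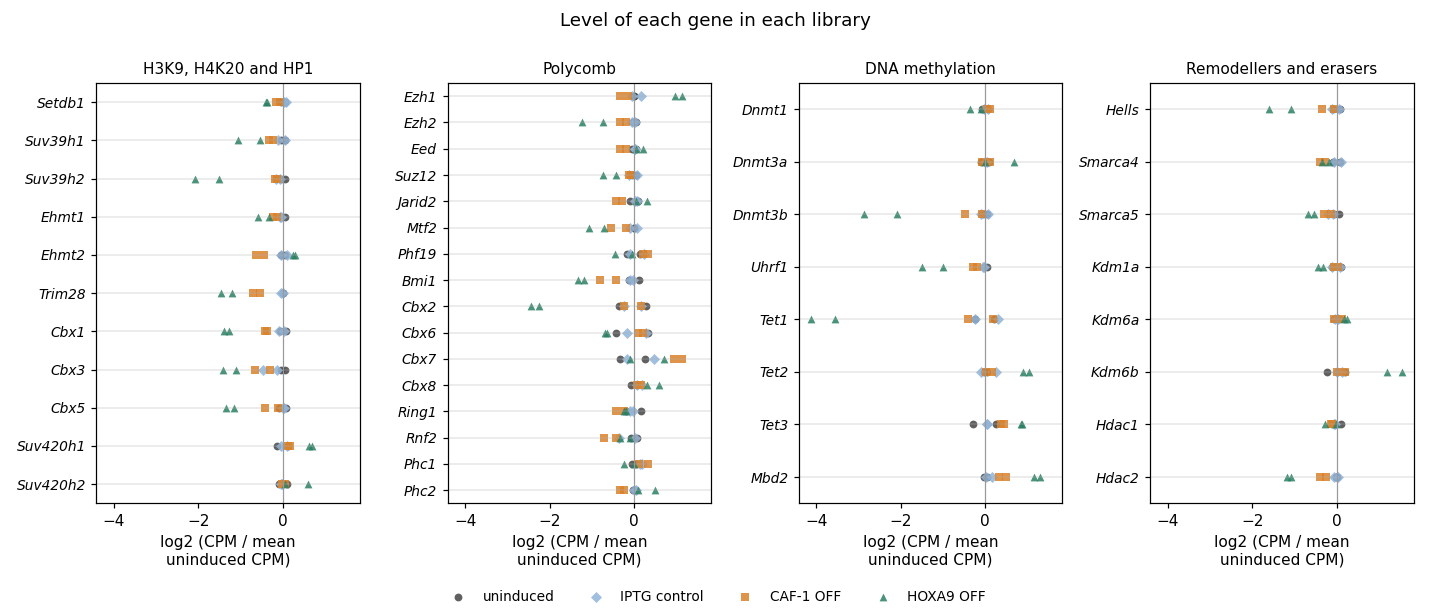
Each point is the level of a gene in 1 library, as log2 of its CPM over the mean CPM of uninduced cells (horizontal axis), with the 43 genes as rows in 4 panels and the 4 groups by colour and symbol. IPTG control points lie close to 0, CAF-1 OFF points lie mostly slightly to the left, and HOXA9 OFF points spread from Tet1 on the far left to Kdm6b on the right.

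Whether loss of the histone chaperone alters the expression of the repressive machinery was read from CAF-1 OFF against uninduced cells. Few members were called: 0 of 43 were higher, against 10.5% of all tested genes, and 2 of 43 were lower, against 3.50% of all tested genes. The 2 that fell were Trim28 and Bmi1, a core subunit of Polycomb repressive complex 1. The median log2 fold change of the members was -0.19 and that of all tested genes 0.01, and 29 of 43 members had a negative value. Neutrophil markers were higher in the same libraries, 6 of 8 called, with summed levels of 1273 and 2211 CPM against 95.2 and 94.3 CPM in uninduced cells, and so were those of other lineages, with 4 of 6 megakaryocyte, 3 of 5 erythroid and 3 of 6 monocyte or macrophage markers called. Megakaryocyte markers summed to 195.5 and 222.8 CPM against 25.6 and 27.6 CPM, and erythroid markers to 142 and 119.5 CPM against 72.9 and 84.5 CPM. Monocyte or macrophage markers summed to 661.5 and 553 CPM against 415 and 568.6 CPM, where the groups overlapped. The part of these lists in the members' differences was not tested. In bulk RNA, fewer cells of a type and less RNA per cell cannot be told apart.

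Trim28 (chromosome 7, positions 13609501 to 13616384 in mm9) was at 876 and 872 CPM in uninduced, 848 and 882 CPM in IPTG control, 599 and 536 CPM in CAF-1 OFF and 379 and 318 CPM in HOXA9 OFF. Both CAF-1 OFF libraries lay below all 4 control libraries and above both HOXA9 OFF libraries. The change against uninduced cells (log2 fold change -0.62, SE 0.12, edgeR FDR 0.0146) was called, and against IPTG control cells it was -0.61 (edgeR FDR 0.0164). Bmi1 (chromosome 2, positions 18598645 to 18608256) was at 123 and 143 CPM in uninduced, 130.3 and 123 CPM in IPTG control, 97.8 and 76.1 CPM in CAF-1 OFF and 53.2 and 58.2 CPM in HOXA9 OFF. Its CAF-1 OFF values also lay between the controls and HOXA9 OFF, without overlap (log2 fold change -0.61, SE 0.14, edgeR FDR 0.0247). Against IPTG control cells Bmi1 had a log2 fold change of -0.54, edgeR FDR 0.0379, which is short of 1.5-fold. Both calls sit near the fold threshold and the loss of a library ends them: against uninduced cells, the edgeR FDR of Trim28 was 0.0839 without uninduced replicate 1, 0.0583 without uninduced replicate 2 and 0.124 without CAF-1 OFF replicate 2, and that of Bmi1 was 0.0772, 0.112 and 0.163.

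Another 4 members passed the FDR in CAF-1 OFF but not the fold. Ehmt2 (G9a), which writes H3K9 mono- and dimethylation in euchromatin, was at 207 and 194 CPM in uninduced, 193 and 213 CPM in IPTG control, 146 and 129 CPM in CAF-1 OFF and 236 and 246 CPM in HOXA9 OFF. CAF-1 OFF libraries were below and HOXA9 OFF libraries above all controls (log2 fold change -0.54, SE 0.10, edgeR FDR 0.0152 in CAF-1 OFF). Without CAF-1 OFF replicate 1 it passed the fold threshold too, at -0.65. The others were the HP1 gene Cbx1 (-0.40, edgeR FDR 0.0297), the deacetylase gene Hdac2 (-0.32, edgeR FDR 0.0469) and Mbd2, which encodes a methyl-CpG binding protein (0.41, edgeR FDR 0.0374). Against IPTG control cells Ehmt2 (-0.56, edgeR FDR 0.0148) and Cbx1 (-0.37, edgeR FDR 0.0404) also passed the FDR. Hdac2 (-0.31, edgeR FDR 0.0559) and Mbd2 (0.32, edgeR FDR 0.0796) did not. Among members that missed the FDR against uninduced cells, Rnf2, the catalytic subunit of Polycomb repressive complex 1, was at -0.55 (edgeR FDR 0.0513) and Cbx7 at 1.04 (edgeR FDR 0.0875). The core of Polycomb repressive complex 2 (Ezh2, Eed and Suz12) had log2 fold changes of -0.26, -0.25 and -0.09, and Dnmt1 and Dnmt3a had 0.07 and 0.02.

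Against IPTG control cells, 0 of 43 members were higher in CAF-1 OFF (9.56% of all tested genes) and 1 of 43 lower (3.20%), which was Trim28. The edgeR FDR of Trim28 in this comparison was 0.143 without CAF-1 OFF replicate 2, 0.0828 without IPTG control replicate 1 and 0.103 without IPTG control replicate 2. The log2 fold changes of the members had a median of -0.14 and ranged from -0.61 for Trim28 to 0.85 for Cbx7. The CAF-1 OFF libraries enter both comparisons.

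**Figure D2:**
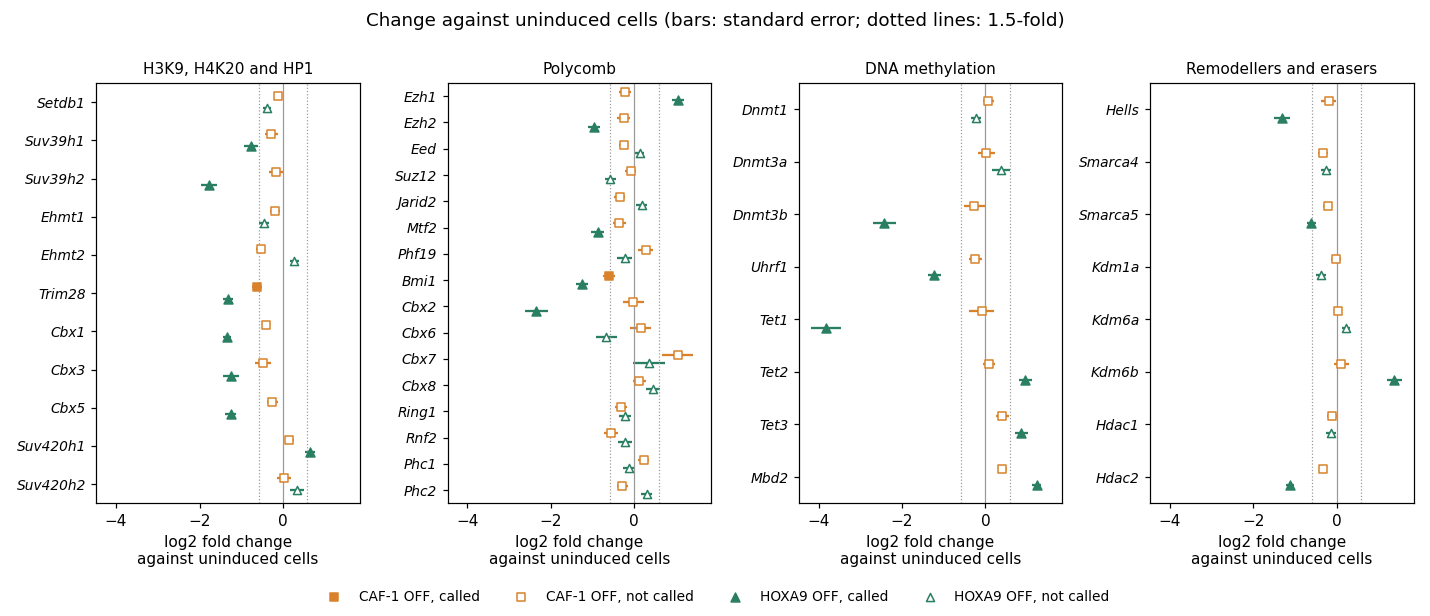
Log2 fold change against uninduced cells (horizontal axis) of the 43 genes in CAF-1 OFF (squares) and HOXA9 OFF (triangles), with standard errors from the edgeR fit. Filled symbols passed an FDR under 0.05 and 1.5-fold, the dotted lines. CAF-1 OFF has 2 filled symbols, Trim28 and Bmi1, and HOXA9 OFF has 22, of which 16 lie to the left.

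HOXA9 inactivation, which lets these progenitors mature towards neutrophils, moved many more members than CAF-1 OFF did, and many more of all tested genes. Of 13080 tested genes, 3293 rose and 2886 fell against uninduced cells, where CAF-1 OFF had 1378 that rose and 458 that fell. The larger number of moved genes is therefore not particular to the members. Of the 43 members, 16 fell, against 22.1% of all tested genes, and 6 rose, against 25.2% of all tested genes. The shares of members were 37.2% lower and 14.0% higher, and the median log2 fold change was -0.26 for the members and 0.01 for all tested genes. Genes that fell included all 3 HP1 genes, both Suv39h genes, Ezh2, Dnmt3b, Uhrf1, Tet1 and Hells, and those that rose were Ezh1, Tet2, Tet3, Kdm6b, Mbd2 and Suv420h1. Scaling by library size alone moved the median of all genes to -0.18 and gave 19 members lower and 5 higher.

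Genes of DNA replication and division moved with this result. Of 20 proliferation genes, 14 were lower and 0 higher in HOXA9 OFF cells, with a median log2 fold change of -0.74 and summed levels of 5315 and 3827 CPM against 7775 and 7015 CPM in uninduced cells. In CAF-1 OFF cells they summed to 6944 and 6892 CPM, with 1 gene higher and 0 lower. Neutrophil markers were higher in HOXA9 OFF cells, 8 of 8 called, with summed levels of 9111 and 6192 CPM. So were 5 of 6 monocyte or macrophage markers, with sums of 1436 and 2004 CPM, and 4 of 6 megakaryocyte markers, with sums of 132 and 141.6 CPM and 1 lower. Erythroid markers summed to 25.1 and 15.6 CPM, with 1 of 5 higher and 1 lower, which was Car2 (log2 fold change -4.82). B cell markers summed to 58.6 and 68.2 CPM against 130.9 and 153.5 CPM in uninduced cells, with 1 of 4 higher and 2 lower, among them Ebf1 (log2 fold change -6.38). The progenitor markers had a median log2 fold change of -1.26, and among the 4 that fell Flt3 was at -5.68, Cd34 at -2.86 and Kit at -1.78. The part of any of these lists in the members' changes was not tested.

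**Figure D3:**
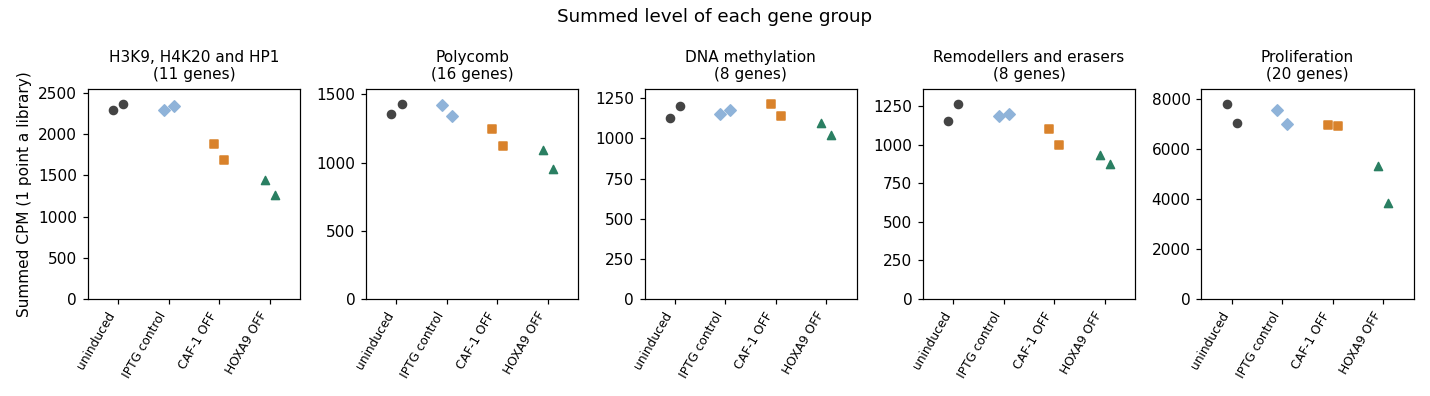
Summed CPM (vertical axis, from 0) of the 4 gene groups and of 20 proliferation genes, with 1 point a library and the groups along the horizontal axis. The sum of the H3K9 group is 1884 and 1685 CPM in CAF-1 OFF and 1447 and 1264 CPM in HOXA9 OFF cells, below the 2295 and 2363 CPM of uninduced cells, and the proliferation sum is lowest in HOXA9 OFF cells.

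Of the 11 genes of H3K9 and H4K20 methylation and HP1, 6 fell (54.5%, against 22.1% of all tested genes) and 1 rose (9.09%, against 25.2%) in HOXA9 OFF cells. The HP1 proteins bind methylated H3K9 and compact heterochromatin. Cbx1 (HP1 beta) was at 193 and 214 CPM in uninduced, 192 and 207 CPM in IPTG control, 156 and 153 CPM in CAF-1 OFF and 84.4 and 76.8 CPM in HOXA9 OFF. HOXA9 OFF values were below all others and the CAF-1 OFF values lay between (log2 fold change -1.34, SE 0.10, edgeR FDR 3.61e-05). Cbx5 (HP1 alpha) was at 476 and 535 CPM in uninduced, 512 and 506 CPM in IPTG control, 466 and 378 CPM in CAF-1 OFF and 226 and 198 CPM in HOXA9 OFF, again with HOXA9 OFF lowest and no overlap (log2 fold change -1.25, SE 0.14, edgeR FDR 0.000166). Cbx3 (HP1 gamma) was at 30.00 and 28.2 CPM in uninduced, 26.6 and 21.1 CPM in IPTG control, 23.5 and 18.5 CPM in CAF-1 OFF and 13.6 and 10.96 CPM in HOXA9 OFF, and its HOXA9 OFF libraries were the lowest too (log2 fold change -1.25, SE 0.19, edgeR FDR 0.00103). Of the 50-base windows of Cbx3 exons, 54.5% occurred once in the genome, so its level is a lower estimate where reads with several alignments were not counted.

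Suv39h1 and Suv39h2 encode the enzymes that trimethylate H3K9 at pericentric heterochromatin. Suv39h2 (chromosome 2, positions 3373087 to 3392303) was at 30.6 and 32.3 CPM in uninduced, 29.96 and 28.03 CPM in IPTG control, 27.9 and 28.4 CPM in CAF-1 OFF and 11.02 and 7.39 CPM in HOXA9 OFF. It had the steepest fall of this group, with HOXA9 OFF libraries far under all others (log2 fold change -1.77, SE 0.19, edgeR FDR 0.000171). Suv39h1 (chromosome X) was at 130.1 and 122 CPM in uninduced, 131 and 115 CPM in IPTG control, 107 and 101 CPM in CAF-1 OFF and 86.9 and 60.4 CPM in HOXA9 OFF. All HOXA9 OFF values lay below those of other groups, and HOXA9 OFF replicate 2 was the lower of the pair (log2 fold change -0.77, SE 0.17, edgeR FDR 0.00518). Without that library the log2 fold change was -0.53, short of 1.5-fold. Exons of the gene models of Suv39h1 and Suv39h2 share 11.3% and 9.98% of their bases with other annotated genes.

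Trim28 fell further in HOXA9 OFF than in CAF-1 OFF cells, with log2 fold change -1.33, SE 0.12, edgeR FDR 7.74e-05 against uninduced cells. Suv420h1 (Kmt5b), a writer of H4K20 di- and trimethylation, was the member of this group that rose, from 64.3 and 76.2 CPM in uninduced and 68.5 and 75.3 CPM in IPTG control cells to 114 and 108 CPM in HOXA9 OFF cells, with 79.5 and 76.7 CPM in CAF-1 OFF cells. The HOXA9 OFF libraries were above all others (log2 fold change 0.65, SE 0.11, edgeR FDR 0.00184), although without uninduced replicate 1 the log2 fold change was 0.53 and with scaling by library size alone 0.46. Its paralog Suv420h2 (Kmt5c) was at 104 and 91.9 CPM in uninduced, 96.2 and 95.4 CPM in IPTG control, 101 and 97.03 CPM in CAF-1 OFF and 147 and 101 CPM in HOXA9 OFF, where HOXA9 OFF replicate 1 stood high and replicate 2 lay within the range of the other groups (log2 fold change 0.34, edgeR FDR 0.116). The remaining members of the group, Setdb1, Ehmt1 and Ehmt2, had log2 fold changes of -0.39, -0.45 and 0.27 and were not called. Ehmt1 (GLP), the partner of Ehmt2, was at 89.02 and 95.6 CPM in uninduced, 88.6 and 90.04 CPM in IPTG control, 83.8 and 78.1 CPM in CAF-1 OFF and 73.5 and 61.6 CPM in HOXA9 OFF.

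Of 16 Polycomb genes, 4 fell (25.0%, near the 22.1% of all tested genes) and 1 rose (6.25%, against 25.2%) in HOXA9 OFF cells, and the 2 EZH paralogs moved in opposite directions. Ezh2, the main H3K27 methyltransferase of dividing cells, was at 193 and 204 CPM in uninduced, 193 and 201 CPM in IPTG control, 175 and 157 CPM in CAF-1 OFF and 118 and 85.00 CPM in HOXA9 OFF. HOXA9 OFF libraries were below all others (log2 fold change -0.96, SE 0.15, edgeR FDR 0.00115). Ezh1 (chromosome 11, positions 101052429 to 101087777), the paralog linked to non-dividing cells, was at 19.6 and 19.6 CPM in uninduced, 18.9 and 21.96 CPM in IPTG control, 15.6 and 17.8 CPM in CAF-1 OFF and 42.6 and 38.3 CPM in HOXA9 OFF. Its HOXA9 OFF libraries were well above every other library (log2 fold change 1.05, SE 0.14, edgeR FDR 0.000526). The other core subunits Eed and Suz12 had log2 fold changes of 0.13, edgeR FDR 0.334 and -0.57, edgeR FDR 0.00642. Suz12 sat just under 1.5-fold and was called in 5 of 11 other settings of the fit.

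Accessory subunits steer Polycomb repressive complex 2 to its targets. Mtf2, which binds unmethylated CG-rich DNA, was at 217 and 219.7 CPM in uninduced, 231 and 205 CPM in IPTG control, 191 and 150.1 CPM in CAF-1 OFF and 133 and 105 CPM in HOXA9 OFF, with HOXA9 OFF lowest (log2 fold change -0.87, SE 0.16, edgeR FDR 0.00208). Phf19, a related subunit, was at 43.8 and 35.2 CPM in uninduced, 46.4 and 36.8 CPM in IPTG control, 49.2 and 46.00 CPM in CAF-1 OFF and 38.4 and 28.9 CPM in HOXA9 OFF, with HOXA9 OFF replicate 1 within the range of the controls and replicate 2 below it. Phf19 and Jarid2 had log2 fold changes of -0.23 and 0.18 and were not called. In Polycomb repressive complex 1, Bmi1 fell in HOXA9 OFF (log2 fold change -1.25, SE 0.14, edgeR FDR 0.000224). The catalytic subunits Ring1 and Rnf2 and the scaffold genes Phc1 and Phc2 were between -0.22 and 0.30 and were not called.

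The CBX subunits, which read H3K27 methylation, did not move together. Cbx2 (chromosome 11, positions 118884276 to 118892584) was at 26.7 and 42.1 CPM in uninduced, 29.4 and 38.6 CPM in IPTG control, 38.7 and 29.1 CPM in CAF-1 OFF and 6.29 and 7.24 CPM in HOXA9 OFF. Its HOXA9 OFF libraries lay far under the lowest other library, and replicates of the other groups varied among themselves (log2 fold change -2.34, SE 0.27, edgeR FDR 0.000236). Its chromosomal neighbour Cbx8 (chromosome 11, positions 118897619 to 118902283) was at 15.1 and 16.6 CPM in uninduced, 18.2 and 16.5 CPM in IPTG control, 16.7 and 17.9 CPM in CAF-1 OFF and 23.9 and 19.4 CPM in HOXA9 OFF, higher in both HOXA9 OFF libraries than in any other but under 1.5-fold (log2 fold change 0.45, SE 0.16, edgeR FDR 0.045). Cbx6 was at 24.2 and 40.6 CPM in uninduced, 28.8 and 39.4 CPM in IPTG control, 34.8 and 37.2 CPM in CAF-1 OFF and 20.1 and 20.6 CPM in HOXA9 OFF. Its uninduced replicates differed by more than 1.5-fold, and it was not called (log2 fold change -0.67, SE 0.25, edgeR FDR 0.0513), though it was in 6 of 11 other settings of the fit. Exons of Cbx6 share 18.7% of their bases with Npcd. Cbx7 was low throughout, at 2.54 and 3.81 CPM in uninduced, 2.83 and 4.42 CPM in IPTG control, 6.11 and 6.95 CPM in CAF-1 OFF and 5.16 and 2.98 CPM in HOXA9 OFF, and its HOXA9 OFF libraries overlapped the controls.

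Of 8 genes of DNA methylation, 3 fell and 3 rose in HOXA9 OFF cells, 37.5% each way against 22.1% and 25.2% of all tested genes. Tet1 (chromosome 10, positions 62267318 to 62361866), a dioxygenase that oxidises methylcytosine, was at 12.4 and 17.1 CPM in uninduced, 18.02 and 12.4 CPM in IPTG control, 16.7 and 11.03 CPM in CAF-1 OFF and 1.25 and 0.843 CPM in HOXA9 OFF. It had the largest fall of all 43 genes, to 23 and 17 counts in the HOXA9 OFF libraries from 278 and 401 counts in the uninduced ones (log2 fold change -3.82, SE 0.37, edgeR FDR 9.61e-05). Tet2 (chromosome 3, positions 133126643 to 133207354) was at 27.9 and 29.4 CPM in uninduced, 34.2 and 26.5 CPM in IPTG control, 31.9 and 29.1 CPM in CAF-1 OFF and 58.4 and 52.8 CPM in HOXA9 OFF. Both HOXA9 OFF values lay above all others (log2 fold change 0.96, SE 0.15, edgeR FDR 0.000982). Tet3 was at 55.1 and 80.4 CPM in uninduced, 69.2 and 69.6 CPM in IPTG control, 92.2 and 87.4 CPM in CAF-1 OFF and 124 and 122 CPM in HOXA9 OFF, with HOXA9 OFF highest and CAF-1 OFF next (log2 fold change 0.86, SE 0.16, edgeR FDR 0.00282). In CAF-1 OFF cells Tet3 was not called (log2 fold change 0.41, edgeR FDR 0.117), except without uninduced replicate 2, at 0.70.

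Dnmt3b (chromosome 2, positions 153475186 to 153513466), a de novo methyltransferase, was at 29.2 and 27.3 CPM in uninduced, 29.5 and 26.3 CPM in IPTG control, 26.7 and 20.2 CPM in CAF-1 OFF and 6.67 and 3.87 CPM in HOXA9 OFF. HOXA9 OFF libraries were far below the rest (log2 fold change -2.42, SE 0.27, edgeR FDR 0.000187). Its paralog Dnmt3a was at 123 and 141 CPM in uninduced, 136 and 131 CPM in IPTG control, 142 and 126 CPM in CAF-1 OFF and 131 and 211 CPM in HOXA9 OFF: HOXA9 OFF replicate 2 was high and replicate 1 within the range of the controls, and there was no call (log2 fold change 0.37, SE 0.20, edgeR FDR 0.154). Without HOXA9 OFF replicate 1 the log2 fold change of Dnmt3a was 0.67 and was called. Dnmt1, the maintenance methyltransferase, was at 467 and 519 CPM in uninduced, 478 and 512 CPM in IPTG control, 528 and 508 CPM in CAF-1 OFF and 462 and 382 CPM in HOXA9 OFF, where HOXA9 OFF replicate 1 was just below and replicate 2 further below the other libraries, with no call (log2 fold change -0.23, edgeR FDR 0.153).

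Uhrf1, which recruits DNMT1 to hemimethylated DNA, was at 355 and 335 CPM in uninduced, 331 and 335 CPM in IPTG control, 303 and 281 CPM in CAF-1 OFF and 172 and 122 CPM in HOXA9 OFF. It was called in HOXA9 OFF cells, with both libraries below every other (log2 fold change -1.23, SE 0.16, edgeR FDR 0.000381). Mbd2, a methyl-CpG binding protein of the NuRD corepressor, was at 58.6 and 56.2 CPM in uninduced, 57.6 and 64.1 CPM in IPTG control, 72.1 and 80.1 CPM in CAF-1 OFF and 141 and 128 CPM in HOXA9 OFF. HOXA9 OFF libraries were highest, CAF-1 OFF libraries next, and no group of treated libraries overlapped the controls (log2 fold change 1.23, SE 0.11, edgeR FDR 7.38e-05).

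Of 8 remodellers, demethylases and deacetylases, 3 fell (37.5%, against 22.1% of all tested genes) and 1 rose (12.5%, against 25.2%) in HOXA9 OFF cells. Hells (LSH), a remodeller needed for DNA methylation of repeats, was at 210.3 and 239 CPM in uninduced, 234 and 209.8 CPM in IPTG control, 216 and 178 CPM in CAF-1 OFF and 107 and 74.2 CPM in HOXA9 OFF. Its HOXA9 OFF libraries were the lowest (log2 fold change -1.31, SE 0.18, edgeR FDR 0.000602). Hdac2 was at 206 and 208 CPM in uninduced, 199 and 212 CPM in IPTG control, 173 and 158 CPM in CAF-1 OFF and 98.2 and 91.95 CPM in HOXA9 OFF, and here CAF-1 OFF lay between the controls and HOXA9 OFF (log2 fold change -1.12, SE 0.09, edgeR FDR 5.45e-05). Its paralog Hdac1 was at 60.1 and 52.3 CPM in uninduced, 54.4 and 53.4 CPM in IPTG control, 51.4 and 52.4 CPM in CAF-1 OFF and 55.95 and 46.2 CPM in HOXA9 OFF, with HOXA9 OFF values overlapping those of every other group and no call (log2 fold change -0.14, edgeR FDR 0.384). Of Hdac1's exon windows 62.7% occurred once in the genome, and all of Hdac2's did (100%).

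Smarca5 (SNF2H), the ISWI remodelling ATPase, was at 162 and 178 CPM in uninduced, 161 and 146 CPM in IPTG control, 155 and 138 CPM in CAF-1 OFF and 116 and 106 CPM in HOXA9 OFF, with HOXA9 OFF lowest (log2 fold change -0.61, SE 0.11, edgeR FDR 0.00208). It fell short of 1.5-fold without uninduced replicate 2 (-0.54) or HOXA9 OFF replicate 2 (-0.55). Smarca4 (BRG1), the ATPase of SWI/SNF, was at 290.1 and 329 CPM in uninduced, 298 and 334 CPM in IPTG control, 256.2 and 236 CPM in CAF-1 OFF and 244 and 273 CPM in HOXA9 OFF, with HOXA9 OFF and CAF-1 OFF values overlapping below the controls and a log2 fold change in HOXA9 OFF of -0.26, edgeR FDR 0.0931. Kdm6b (JMJD3), which removes H3K27 methylation, was at 33.4 and 44.3 CPM in uninduced, 39.2 and 42.5 CPM in IPTG control, 39.3 and 44.6 CPM in CAF-1 OFF and 113 and 89.3 CPM in HOXA9 OFF. It had the largest rise of the 43 genes, both HOXA9 OFF libraries standing above 2 times every other library (log2 fold change 1.38, SE 0.18, edgeR FDR 0.000362). The second H3K27 demethylase gene, Kdm6a (UTX), was at 102 and 109.5 CPM in uninduced, 109 and 102 CPM in IPTG control, 115 and 102 CPM in CAF-1 OFF and 126 and 120.0 CPM in HOXA9 OFF (log2 fold change 0.22, edgeR FDR 0.0953), and Kdm1a (LSD1) had a log2 fold change of -0.37, edgeR FDR 0.0281, short of 1.5-fold.

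A direct comparison of both treatments tested whether members differed between CAF-1 OFF and HOXA9 OFF cells. Of 43 members, 14 were higher in CAF-1 OFF cells (22.2% of all tested genes) and 5 were lower (21.4%). Higher in CAF-1 OFF were Suv39h2, Trim28, Cbx1, Cbx3, Cbx5, Ezh2, Bmi1, Cbx2, Cbx6, Dnmt3b, Uhrf1, Tet1, Hells and Hdac2. The differences were largest for Tet1 (log2 fold change 3.73, SE 0.37, edgeR FDR 0.00016), Cbx2 (2.32), Dnmt3b (2.16) and Suv39h2 (1.61). Lower in CAF-1 OFF were Ezh1 (log2 fold change -1.28, SE 0.14, edgeR FDR 0.000293), Kdm6b (-1.27), Tet2 (-0.87), Mbd2 (-0.82) and Ehmt2 (-0.81). The median was 0.35 for the members and 0.04 for all tested genes. Of the same 20 proliferation genes, 11 were higher in CAF-1 OFF than in HOXA9 OFF cells and 0 lower.

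Some of these calls rested on a single library or on the scaling. Cbx6 had an edgeR FDR from 0.065 to 0.102 when any of the 4 CAF-1 OFF and HOXA9 OFF libraries was left out. Cbx3 had an edgeR FDR of 0.082 without CAF-1 OFF replicate 1. Trim28 (0.57) and Ezh2 (0.48) fell under 1.5-fold without HOXA9 OFF replicate 2, and Bmi1 did so without CAF-1 OFF replicate 1 (0.45) or HOXA9 OFF replicate 1 (0.57). With scaling by library size alone Ehmt2 did (-0.57), the median of all genes was 0.27, and 20 members were higher and 4 lower. Of the 43 members, 2 were lower against uninduced cells in both treatments, 14 were called lower in HOXA9 OFF only, 6 called higher in HOXA9 OFF only, and 21 called in neither. The treatments share the uninduced libraries, and a call in HOXA9 OFF only is no test of a difference, which is the direct comparison above.

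Ratios of paralogs within a library do not depend on the scaling between libraries. Counts per exon base of Ezh2 over Ezh1 had a ratio of 11.8 and 12.5 in uninduced, 12.3 and 11 in IPTG control, 13.4 and 10.6 in CAF-1 OFF and 3.33 and 2.66 in HOXA9 OFF cells. HOXA9 OFF libraries stood apart, with a fold change of the ratio of 0.245 against uninduced cells, and the other groups overlapped each other. Dnmt3a over Dnmt3b was 1.29 and 1.59 in uninduced, 1.42 and 1.53 in IPTG control, 1.63 and 1.91 in CAF-1 OFF and 6.03 and 16.7 in HOXA9 OFF cells, with the HOXA9 OFF replicates differing by more than 2-fold between themselves but both above the rest. Tet2 over Tet1 was 3.6 and 2.73 in uninduced, 3.03 and 3.4 in IPTG control, 3.05 and 4.21 in CAF-1 OFF and 74.8 and 100 in HOXA9 OFF cells, resting on few Tet1 reads in HOXA9 OFF.

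Cbx2 over Cbx8 was 1.53 and 2.19 in uninduced, 1.4 and 2.02 in IPTG control, 2 and 1.4 in CAF-1 OFF and 0.227 and 0.322 in HOXA9 OFF cells. Suv39h1 over Suv39h2 was 3.56 and 3.16 in uninduced, 3.65 and 3.44 in IPTG control, 3.23 and 2.97 in CAF-1 OFF and 6.6 and 6.84 in HOXA9 OFF cells, higher in HOXA9 OFF, where Suv39h2 had the larger fall. Hdac1 over Hdac2 was 0.38 and 0.327 in uninduced, 0.355 and 0.328 in IPTG control, 0.386 and 0.432 in CAF-1 OFF and 0.741 and 0.654 in HOXA9 OFF cells. By contrast the ratio of the HP1 genes Cbx5 over Cbx1 was 1.17 and 1.19 in uninduced, 1.27 and 1.16 in IPTG control, 1.42 and 1.17 in CAF-1 OFF and 1.27 and 1.23 in HOXA9 OFF cells, where the HOXA9 OFF values lay above those of uninduced cells but overlapped those of IPTG control and CAF-1 OFF cells. That of Ring1 over Rnf2 was 0.348 and 0.3 in uninduced, 0.297 and 0.41 in IPTG control, 0.369 and 0.396 in CAF-1 OFF and 0.297 and 0.357 in HOXA9 OFF cells, where the HOXA9 OFF values overlapped those of uninduced and IPTG control cells and the CAF-1 OFF values lay above both uninduced and HOXA9 OFF values. The ratios were not tested and are given as values.

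**Figure D4:**
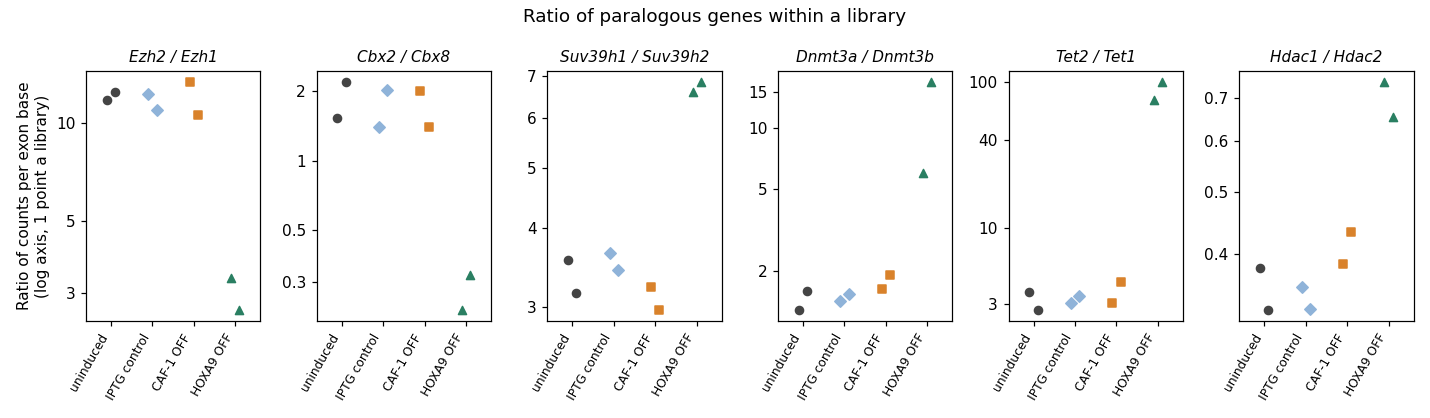
Ratio of counts per exon base between 6 pairs of paralogs (vertical log axes, which differ between panels), with 1 point a library and the 4 groups along the horizontal axis. In every panel both HOXA9 OFF points lie outside the range of the other 6 libraries, below it for Ezh2 over Ezh1 and Cbx2 over Cbx8 and above it in the other panels.

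As 22 members were called in HOXA9 OFF cells, the promoters of all members were searched for words of factors that time genes of DNA replication and division: E2F words, the CHR element and the CCAAT box. RefSeq promoters (table build GRCm38.p6, 250 bases before to 50 after a gene's start) matched 39 of 43 members, with 53 promoters, each found once in mm9 by its 250 upstream bases, which were the bases searched. The CHR words TTTGAA and TTTAAA, on either strand, were in 12 of 53 member promoters (22.6%) and in 25.2% of all 32851 promoters, and CCAAT was in 18 of 53 and in 33.8% of all, so both were about as frequent in members as in all promoters. The E2F words were TTTCCCGC, TTTCGCGC, TTTGCCGC and TTTGGCGC on either strand, and 1.86% of all promoters held at least 1 of them. Each of these words holds a CG pair, which the CHR and CCAAT words do not. Member promoters had a median of 22 CG pairs, against 6 over all promoters, so the shares of E2F words are not like for like. An E2F word was found in 8 of the 53 member promoters (15.1%), in 8 members, 4 of the 15 called lower, 4 of the 20 not called and 0 of the 4 called higher in HOXA9 OFF cells. The 30 bases around each are shown to let the words be compared, in mm9 coordinates and in the gene's direction, with the word in capitals, which reads as its reverse complement where it lies on the opposite strand.
Called lower in HOXA9 OFF:
Hells, chr19:39005407-39005436, plus strand: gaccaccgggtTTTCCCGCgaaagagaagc
Uhrf1, chr17:56443540-56443569, plus strand: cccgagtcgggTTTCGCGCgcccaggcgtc
Cbx3, chr6:51420436-51420465, plus strand: tggagccccgcTTTGGCGCgctccgagacg
Suv39h1, chrX:7651533-7651562, minus strand: ggaaggccggcGCGGCAAAcgtgggggccg
Not called:
Dnmt1, chr9:20757268-20757297, minus strand: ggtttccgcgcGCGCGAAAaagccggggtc
Suz12, chr11:79806378-79806407, plus strand: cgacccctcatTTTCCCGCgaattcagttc
Phf19, chr2:34769686-34769715, minus strand: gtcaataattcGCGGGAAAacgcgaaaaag
Suv420h2, chr7:4691613-4691642, plus strand: ggccagaagagGCGGGAAAaagagagcaat

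The word TTTCCCGC was held by Hells, Suz12, Phf19 and Suv420h2, and TTTCGCGC by Uhrf1 and Dnmt1. In HOXA9 OFF cells the log2 fold changes of the first 4 were -1.31, -0.57, -0.23 and 0.34, and those of Uhrf1 and Dnmt1 were -1.23 and -0.23; no difference between these genes was tested. Member promoters were rich in CG pairs, with a median of 22 against 6 over all promoters, and the medians were 22.5, 21.5 and 17.0 for members called lower, not called and called higher. A match is a description of the letters and not evidence of a bound site.

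Other genes of the same systems, which are not members, were read for comparison. Of all tested genes 25.2% were higher and 22.1% lower in HOXA9 OFF, and 10.5% and 3.50% in CAF-1 OFF cells. Against uninduced cells, 5 of 22 tested genes of the H3K9 list were higher (22.7%) and 3 lower (13.6%) in HOXA9 OFF, and in CAF-1 OFF 2 (9.09%) and 0. Against IPTG control cells CAF-1 OFF had 2 higher (9.09%, with 9.56% of all tested genes) and 1 lower (4.55%, with 3.20%). The 1 lower was the H3K9 demethylase gene Kdm4a (-0.645). Jhdm1d (Kdm7a), a demethylase of H3K9 and H3K27, was at 6.94 and 10.5 CPM in uninduced, 7.63 and 9.51 CPM in IPTG control, 7.84 and 10.5 CPM in CAF-1 OFF and 127 and 100.4 CPM in HOXA9 OFF. It rose steeply in HOXA9 OFF only (log2 fold change 3.70 in HOXA9 OFF, 0.07 in CAF-1 OFF, and -3.63 between CAF-1 OFF and HOXA9 OFF, where it was also called). Atf7ip, a stabilising partner of SETDB1, rose in CAF-1 OFF (1.17) and in HOXA9 OFF cells (0.82), from 42.4 and 49.6 CPM to 87.4 and 120.0 CPM and 91.1 and 71.7 CPM, and was not called between them (0.35). Setdb1 itself was not called in either treatment (log2 fold change -0.11 in CAF-1 OFF and -0.39 in HOXA9 OFF). Prdm2 also rose in both (0.77 in CAF-1 OFF and 1.56 in HOXA9 OFF), and in HOXA9 OFF Wiz, which links EHMT enzymes to chromatin, fell (-1.04) and Phf8, an H3K9 and H4K20 demethylase, rose (0.85).

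In the Polycomb list, 6 of 32 tested genes were higher (18.8%) and 10 lower (31.2%) in HOXA9 OFF cells, while CAF-1 OFF had 3 higher (9.38%) and 1 lower (3.12%), near the shares of all tested genes. Pcgf2 and Pcgf6, which take the place of Bmi1 in other forms of Polycomb repressive complex 1, fell in HOXA9 OFF (-2.23 and -2.29), and so did Scml4 (-3.12). Phf1, a paralog of the members Mtf2 and Phf19, rose (2.02), from 5.96 and 6.503 CPM to 24.1 and 26.5 CPM, whereas Mtf2 fell. In CAF-1 OFF cells Aebp2, an accessory subunit of Polycomb repressive complex 2, was the gene that fell (-0.70), from 98.2 and 127 CPM to 78.8 and 59.6 CPM, and its log2 fold change in HOXA9 OFF was -0.56, short of 1.5-fold. Bcorl1 rose in CAF-1 OFF (0.82) and in HOXA9 OFF (0.79), and so did Mbd6 (0.64 and 1.04), although Mbd6 was not called in CAF-1 OFF against IPTG control cells (0.45). L3mbtl3 rose in CAF-1 OFF (0.61) and was not called in HOXA9 OFF (0.33).

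In the DNA methylation list, 3 of 24 genes were higher (12.5%) and 9 lower (37.5%) in HOXA9 OFF cells, while CAF-1 OFF had 2 higher (8.33%) and 4 lower (16.7%). Mat2a, the enzyme that makes the methyl donor S-adenosylmethionine, was at 496 and 428 CPM in uninduced, 465 and 433 CPM in IPTG control, 292 and 232 CPM in CAF-1 OFF and 163 and 160.3 CPM in HOXA9 OFF. It was lower in CAF-1 OFF (-0.82) and in HOXA9 OFF cells (-1.51), and neither treated group overlapped the controls or the other. Tdg, the glycosylase that removes oxidised methylcytosine, fell in both treatments (-0.71 in CAF-1 OFF and -0.69 in HOXA9 OFF) but was not called in CAF-1 OFF against IPTG control cells (-0.57). Zbtb4, a zinc finger protein that binds methylated CpG, was low, at 2.45 and 2.74 CPM in uninduced cells, and rose in CAF-1 OFF (1.64) and in HOXA9 OFF (2.30). Cxxc5 went in opposite directions, up in CAF-1 OFF (0.69) and down in HOXA9 OFF (-2.70), and Idh2, which makes the cofactor of TET enzymes, fell in HOXA9 OFF (-1.75), as did Apex1, a base excision repair endonuclease (-2.02). Apex1 was also called lower in CAF-1 OFF against IPTG control (-0.62) but not against uninduced cells (-0.58). Of 54 tested genes of the remodeller list, 9 were higher (16.7%) and 8 lower (14.8%) in HOXA9 OFF cells, among them Rcor2 (-4.16), Hdac9 (2.48), Smarcc1 (-1.39) and Hdac10 (-1.37), while CAF-1 OFF had 2 higher (3.7%) and 1 lower (1.85%). Smarca2 rose in CAF-1 OFF (0.91) and in HOXA9 OFF cells (0.79), Chd3 rose in CAF-1 OFF (0.80) and was not called in HOXA9 OFF (0.34), and Hdac10 also fell in CAF-1 OFF (-0.72).

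Genes that these systems keep silent were looked at in the same libraries. Of 33 germline genes, which DNA methylation and the Polycomb form with PCGF6 repress in somatic cells, 7 passed the filter on low counts and 20 had 0 counts in both uninduced libraries. In CAF-1 OFF cells 1 was higher and 1 lower, and in HOXA9 OFF cells 0 and 2. Brdt, a testis bromodomain gene, was at 1.11 and 1.41 CPM in uninduced, 1.201 and 1.901 CPM in IPTG control, 3.21 and 3.29 CPM in CAF-1 OFF and 1.57 and 2.23 CPM in HOXA9 OFF and rose in CAF-1 OFF (1.36). Syce2, a meiotic gene that was well expressed, was at 167 and 143 CPM in uninduced, 152 and 143 CPM in IPTG control, 110.1 and 88.7 CPM in CAF-1 OFF and 38.2 and 42.5 CPM in HOXA9 OFF and fell in both treatments (-0.64 and -1.94). Taf7l, a germ cell transcription factor subunit, was at 0.579 and 1.84 CPM in uninduced and had 0 and 0 counts in HOXA9 OFF cells, where it was called lower. Against IPTG control cells 0 of the 7 were called in CAF-1 OFF in either direction, with log2 fold changes of 1.06 for Brdt and -0.57 for Syce2. Genes that passed the filter had to be expressed in some group, so these counts say nothing of the silent ones, and 15 of 33 had at most 3 counts in every library.

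Of 33 classical Polycomb targets, 32 were in the files, 6 passed the filter, 20 had 0 counts in both uninduced libraries and 22 had at most 3 counts in every library. Cdkn2a, the Ink4a/Arf locus that BMI1 and EZH2 repress in many cell types, was at 269.8 and 256.0 CPM in uninduced, 264 and 275 CPM in IPTG control, 229 and 230.0 CPM in CAF-1 OFF and 237 and 271 CPM in HOXA9 OFF, with CAF-1 OFF libraries just under the others and no call. Lin28b fell in both treatments (-0.82 and -2.71). Developmental regulators such as Gata4, Gata6, Foxa2, Hand1 and Hoxd13 were at 0 counts in all 8 libraries, where a count of 0 allows at most 0.212 CPM in the smallest library, counting error only.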

How the data were processed

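RNA of 8 iGMP libraries was extracted with an RNeasy kit and prepared with an NEB kit, which the study's methods give as directional. Each deposited file holds the read counts of a library by gene symbol, which the authors made by aligning reads to mm9 with STAR and counting with HTSeq, without normalization or pooling. The annotation and the strand setting of the counting are not given in the sources used here, so overlapping and antisense genes are uncertain. The 5 HTSeq summary lines were kept out of library sizes. They include reads outside genes, from 5.3% to 14.6% of a library.

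The 43 members, the lists of other genes and the promoter words were chosen with earlier results of these data known. Groups and replicate numbers came from the labels. Every member is described, with its value in each library where it, or a paralog of it, was called, and for each list of other genes of these systems or of genes they silence, up to 4 with the largest called change against uninduced cells were named for each treatment, 1 of which is not reported here. Marker genes, Cdkn2a and the developmental regulators at 0 counts were named after their values were seen.

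Tests used edgeR 4.0.16 (R 4.3.3): filterByExpr, TMM scaling (factors from 0.8945 to 1.059), a quasi-likelihood fit of all 8 libraries with group as the only term, and glmQLFTest with Benjamini-Hochberg adjustment over 13080 genes. The common biological coefficient of variation was 18.9%. Standard errors were derived from the F statistic. Library totals from 14044284 to 22423837 put a floor of 3 counts at 0.128 to 0.212 CPM, covering counting error only, since PCR copies were not separated. Replicates differed by more than sampling noise, with a chi-square per degree of freedom from 16.6 to 78.2. The code was tested on simulated data.

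Alternatives were scaling by DESeq2 size factors or by library size, a filter at a mean of 50 counts or none, DESeq2 1.42.0, fits restricted to the compared groups, a replicate block, each library left out, and other thresholds. Exon lengths, coordinates (counted from 1) and 50-base windows came from mm9 with GENCODE vM1, of the same build as the authors' alignment. Figures were drawn with matplotlib 3.10.9. No protein sequences were used.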

Additional observations from a re-analysis of the deposited data

How the results depend on the processing

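Of 44 calls of a member in a comparison, tested in 484 refits, 457 kept their direction and side of the threshold, 27 no longer passed, and 0 changed sign. All 44 passed with DESeq2, DESeq2 size factors, either filter, fits of only the groups compared and the replicate block, and 39 of 44 with scaling by library size alone.

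Library size alone gave 0 members lower in CAF-1 OFF cells against uninduced and 0 against IPTG control cells, where Trim28 (-0.58 and -0.56) and Bmi1 (-0.57) fell just short of 1.5-fold. An FDR under 0.01 with 2-fold gave 0 lower in both of these comparisons, 3 higher and 12 lower in HOXA9 OFF against uninduced, and 5 higher and 2 lower in CAF-1 OFF against HOXA9 OFF. An FDR under 0.05 with no fold threshold gave 1 higher and 5 lower in CAF-1 OFF against uninduced, 4 lower against IPTG control, 20 higher and 10 lower against HOXA9 OFF cells, and 7 higher and 20 lower in HOXA9 OFF against uninduced.

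With each library left out in turn, members called higher and lower ranged from 0 to 1 and from 0 to 3 in CAF-1 OFF against uninduced, from 0 to 0 and from 0 to 3 against IPTG control, from 5 to 8 and from 14 to 18 in HOXA9 OFF against uninduced, from 11 to 16 and from 5 to 7 in CAF-1 OFF against HOXA9 OFF, and from 0 to 0 in both directions in IPTG control against uninduced. A group left with 1 library was assumed to vary like the others.

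The replicate block gave 17 members lower in HOXA9 OFF against uninduced, where the fit without it gave 16, and the added call was Cbx6 (edgeR FDR 0.0222 with the block). Across genes, the deviations of same-numbered libraries had r of 0.48 for uninduced and IPTG control. It was 0.30 for uninduced and HOXA9 OFF and 0.32 for IPTG control and HOXA9 OFF. For CAF-1 OFF it was -0.04, -0.02 and 0.08 with uninduced, IPTG control and HOXA9 OFF. Same-numbered libraries of the groups other than CAF-1 OFF thus deviated partly alike. The labels do not say what a number marks, and the main fit has no replicate term, which leaves any shared part in the spread. With 2 libraries a group, members that missed a threshold were not shown to be alike between groups, and levels near the floor, as Tet1 in HOXA9 OFF cells, rest on few reads.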

Other observations

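Further ratios between genes of H3K27 methylation are given as values, since no ratio was tested. Counts per exon base of Cbx2 over Cbx7, both readers of H3K27 methylation, had a ratio of 9.37 and 9.85 in uninduced, 9.26 and 7.79 in IPTG control, 5.64 and 3.72 in CAF-1 OFF and 1.09 and 2.17 in HOXA9 OFF cells. Both treated groups lay under the controls, although neither Cbx2 nor Cbx7 was called in CAF-1 OFF cells. Cbx7 is low, so these ratios rest on few reads. Kdm6b over Ezh2, an eraser and a writer of H3K27 methylation, was 0.154 and 0.194 in uninduced, 0.181 and 0.189 in IPTG control, 0.200 and 0.253 in CAF-1 OFF and 0.849 and 0.936 in HOXA9 OFF cells, where the HOXA9 OFF libraries stood far above the rest.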
